A study of Mus musculus with 56 samples.

Results

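The genes studied here encode the proteins of the spliceosome and the heterogeneous nuclear ribonucleoproteins (hnRNPs), measured in the blood of mice that carried 90Sr, a beta-emitting radionuclide that is retained in bone. They were taken by name: every gene on the array whose name begins with Sf3a, Sf3b, U2af, Snrp, Prpf, Srsf, Sfrs or Hnrnp, each read by its brightest probe. The rule found 66 of the 30199 gene names on the array, on 116 of its 39429 probes. Of these, 65 passed the detection filter (a positive and significant signal on over 75% of the arrays) and were tested among 18876 genes (18875 at day 4 and in the tests over all days). The remaining member, Snrpn, which encodes a neuronal Sm protein, was well above background, by the scanner's own flag, on 2 of 56 arrays and was not tested.

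Splicing removes introns from pre-mRNA. The U1 snRNP binds the 5′ splice site, U2af proteins mark the 3′ end of the intron and bring in the U2 snRNP with its Sf3a and Sf3b subunits, and the U4/U6.U5 tri-snRNP, which holds several Prpf proteins, then joins and is rearranged into the catalytic spliceosome. SR proteins (Srsf) and hnRNPs bind the transcript itself and, broadly, favour or oppose the use of nearby splice sites.

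C57BL/6 mice of approximately 10 to 12 weeks received 200 kBq of 90Sr as strontium chloride, with an 85Sr tracer, in 1 injection into the tail vein, and control mice received the saline vehicle. Whole blood was drawn from separate mice on day 4 (4 irradiated and 4 control mice) and on days 7, 9, 25 and 30 (6 of each) (56 mice and 56 arrays in all). Because the emitter stayed in the body, a later day also means a larger accumulated dose, so time and dose cannot be told apart. Globin-reduced RNA was labelled with Cy3 and hybridised to one-colour Agilent whole-genome mouse arrays. A level below is the log2 of a probe's processed fluorescence minus the median over the 43020 non-control spots of its array, and a change is the mean level of irradiated mice minus that of the control mice of the same day. A gene was called when the unadjusted p of limma's moderated test was under 0.001 and the change was at least 2-fold, and adjusted p-values are Benjamini-Hochberg values over all genes tested.

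All 55 blood cell markers listed passed the detection filter, as did 18876 of the 30199 genes on the array. Markers of other tissues were not listed, so the labelled tissue was not tested against them. Over the 5 days 9 of 10 B cell markers were lower in irradiated mice at an adjusted p under 0.05 (median change -2.17), as were 7 of 10 T cell, 5 of 6 NK cell, 5 of 8 neutrophil and 4 of 6 monocyte markers, while 1 T cell (Cd8b1, 0.60), 1 NK cell (Eomes, 0.20) and 1 monocyte marker (Cd14, 0.70), 8 of 8 red cell markers (median change 0.85) and 5 of 7 platelet markers were higher. The mean level of the B cell markers ran from 4.37 to 5.38 in control mice and from 2.63 to 4.28 in irradiated mice, and that of the red cell markers from 6.65 to 7.87 and from 7.52 to 8.63. Control arrays had 17809 to 24698 spots well above background and irradiated arrays 14389 to 22524, and the unscaled array median was lower in irradiated mice by a mean change between -0.59 and -0.94 log2 at each day. At day 4 all control arrays lay on 1 slide and all irradiated arrays on another, so slide and group cannot be told apart there. For each of the other days there was 1 slide shared by 2 control and 2 irradiated arrays. By the study's own manual counts of blood smears, irradiated mice did not differ significantly from controls on any day. The markers above are RNA levels, and on these arrays of whole blood, fewer cells of a type and less RNA per cell cannot be told apart.

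For 56 of the 65 tested members RefSeq (GRCm38.p6) gave a promoter, taken here as the 250 bases before each annotated start. A gene with several starts was counted when any of its windows held the motif, so such genes had more chances of a match. A pair of short motifs was frequent among them. The GC box, GGGCGG on either strand, stood in 67.9% of these members and in 35.4% of the 27025 genes with a promoter. The CCAAT box, CCAAT on either strand, stood in 50% and 37.5%. Of 5 other motifs searched on both strands, the Ets motif CCGGAAGT stood in 14.3% of members and 3.23% of all genes, the E-box CACGTG in 12.5% and 6.86%, the Nrf1 motif GCATGCGC in 7.14% and 2.56%, the CRE TGACGTCA in 3.57% and 1.77%, and the Yy1 motif AAGATGGC in 1.79% and 1.83%. The members counted had passed the detection filter, while the 27025 genes were not limited to genes detected in blood. The shares among the tested genes were not counted. A match of letters is a description and not a binding site, and binding was not measured. The promoters of 4 genes are shown, 3 with a large decrease at every day (Prpf38a, chr4:108579337-108579586, minus strand; Srsf9, chr5:115326927-115327176, plus strand; Prpf31, chr7:3629735-3629984, plus strand) and Sf3a2 (chr10:80798485-80798734, plus strand), 1 of 2 members called higher at day 30. Capitals mark matches of any of the motifs, in either orientation; in these windows they are GC and CCAAT boxes.
Prpf38a: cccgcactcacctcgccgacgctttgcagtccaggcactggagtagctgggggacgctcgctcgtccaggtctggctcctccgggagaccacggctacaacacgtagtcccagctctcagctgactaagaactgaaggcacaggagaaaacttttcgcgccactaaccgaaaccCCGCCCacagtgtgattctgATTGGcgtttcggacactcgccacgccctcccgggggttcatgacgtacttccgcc
Srsf9: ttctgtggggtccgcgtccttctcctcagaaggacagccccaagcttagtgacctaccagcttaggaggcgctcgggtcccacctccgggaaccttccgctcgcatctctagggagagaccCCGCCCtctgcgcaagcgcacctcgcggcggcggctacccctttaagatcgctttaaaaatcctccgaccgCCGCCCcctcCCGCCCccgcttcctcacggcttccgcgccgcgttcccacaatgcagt
Prpf31: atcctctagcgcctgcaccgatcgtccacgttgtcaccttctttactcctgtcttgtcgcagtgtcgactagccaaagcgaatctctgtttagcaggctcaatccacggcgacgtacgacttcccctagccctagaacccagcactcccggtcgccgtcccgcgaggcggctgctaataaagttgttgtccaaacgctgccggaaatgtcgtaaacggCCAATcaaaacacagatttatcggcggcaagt
Sf3a2: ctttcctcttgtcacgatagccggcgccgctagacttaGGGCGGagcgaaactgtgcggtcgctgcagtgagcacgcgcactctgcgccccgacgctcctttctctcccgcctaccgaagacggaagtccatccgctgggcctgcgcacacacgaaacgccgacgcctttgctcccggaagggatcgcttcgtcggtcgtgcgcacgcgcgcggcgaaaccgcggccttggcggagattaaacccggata
The GC box lies in the Prpf38a, Srsf9 and Sf3a2 windows and the CCAAT box in those of Prpf38a and Prpf31. Among 9 members called lower at all 5 days that have a promoter, 6 held a CCAAT box and 6 a GC box, against 9 and 14 of the 21 that were called lower at no day.

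Most of the splicing genes were lower in the blood of irradiated mice, already at day 4 and still at day 30. Averaged over the 5 days, 54 of the 65 tested members fell, 7 rose and 4 did not pass at an adjusted p under 0.05 (limma, all 56 mice), where 39.9% of all genes tested fell and 43.3% rose. The members' median change was -0.97 and that of all genes 0.08. At day 4, 30 of the 65 members were called lower (46.2%, against 17.3% of all genes). On day 7 the count was 17 (26.2%, against 12%), on day 9 it was 22 (33.8%, against 13.6%), on day 25 it was 32 (49.2%, against 19.7%) and on day 30 it was 30 (46.2%, against 16.1%). Members called higher were 0 at each of the first 4 sampling days (2.14%, 2.58%, 4.44% and 5.69% of all genes; 3, 1, 5 and 2 members at an unadjusted p under 0.05 by limma) and 2 at day 30 (3.08%, against 15.6%). At an adjusted p under 0.05 with no minimum change, 50, 46, 38, 51 and 45 members were lower in order of day (33.6%, 33.4%, 27.3%, 38.1% and 29.7% of all genes) and 1, 1, 2, 1 and 6 were higher (20.4%, 24.1%, 15.5%, 26% and 34.5%). On the scale of the array median, the members called lower therefore made up a share above that of all genes at every day. Those called higher made up a share below it. With other scalings, given below, the first did not hold at every day. The part of the blood cell marker changes described above in this was not tested.

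**Figure D1:**
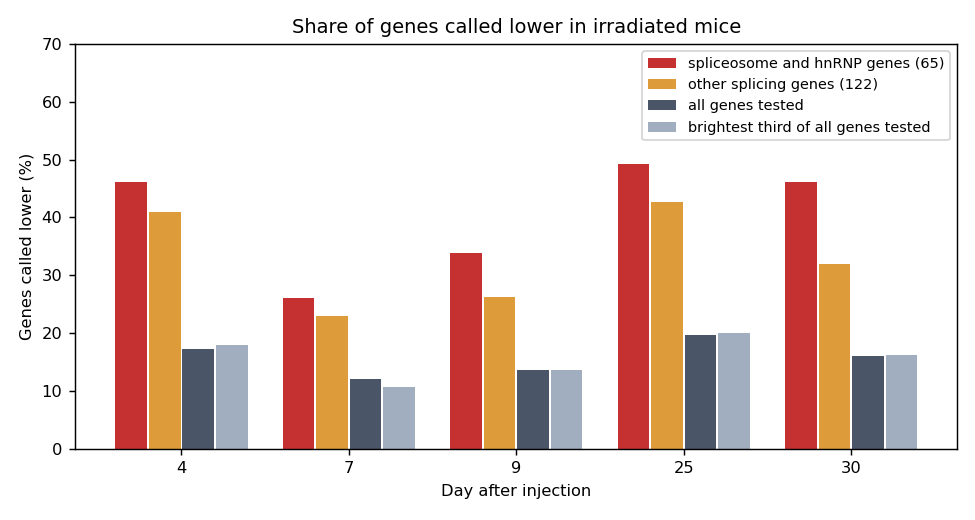
Share of genes called lower (percent, vertical axis) at each day after injection (horizontal axis) for the 65 tested members, 122 other splicing genes, all genes tested and the genes of the brightest of 3 equal classes. The members' bars stand between 26.2% and 49.2%, and those of all genes between 12% and 19.7%.

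The median change of the members was -1.02, -0.84, -0.74, -1.06 and -0.96 in order of day, beside -0.01, 0.00, -0.08, -0.09 and 0.12 for all genes. The change was below 0 for 60, 59, 50, 58 and 56 of the 65. Every irradiated mouse lay below every control mouse for 49, 38, 34, 44 and 27 of them, and every irradiated mouse lay above every control mouse for 0, 0, 0, 0 and 2. Such separation was not counted over all genes, so these numbers have no background share beside them. One library weighed on several counts of members called lower. Without irradiated mouse 6 of day 7 the members called lower at that day were 7 in place of 17, and without control mouse 5 of day 9 they were 14 in place of 22.

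Called lower at all 5 days were 10 members (6.3% of all genes were): Sf3a3, Sf3b4, U2af1, Snrpb2, Prpf8, Prpf31, Prpf38a, Srsf9, Hnrnpa0 and Hnrnph1, which come from each of the 6 name groups. A further 11 were called lower at 4 days, 6 at 3 days, 13 at 1 or 2 days and 23 at no day without being called higher, and the 2 called higher, Sf3a2 and Sf3b2, were called lower at no day. Without irradiated mouse 6 of day 7 the count at all 5 days was 3.

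**Figure D2:**
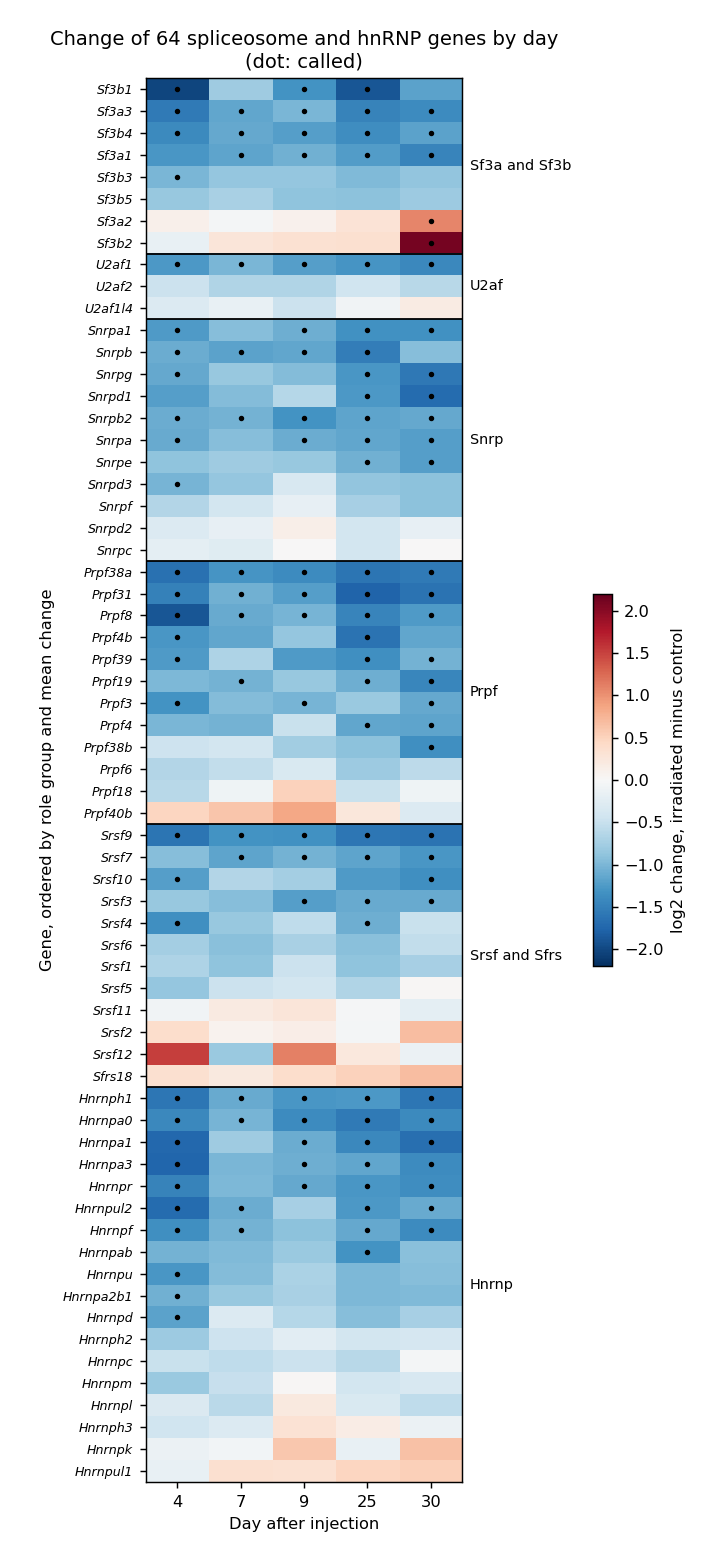
Change of 64 of the 65 tested members (rows, ordered within name groups) at each day after injection (columns), as irradiated minus control on the log2 scale in colour, with a dot where the gene was called. Most cells show a decrease, and called increases stand only at day 30, for Sf3a2 and Sf3b2.

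The share called lower also varied with the level of a gene. When all genes were split into 3 equal classes by their level in control mice, the brightest class held 41 members, of which 48.8%, 29.3%, 36.6%, 48.8% and 43.9% were called lower at the 5 days, against 17.96%, 10.74%, 13.6%, 19.99% and 16.2% of all genes of that class. The middle class held 14 members, of which 8, 3, 5, 7 and 9 were called lower, against 29.2%, 20.7%, 23.1%, 33.0% and 26.3% of all genes there, so that at day 7 its members were close to the other genes of the class. Other scalings moved the counts. Scaling to the 75th percentile raised the median change of all genes to between 0.31 and 0.47, while that of the members lay between -0.78 and -0.35. Then 10, 0, 0, 5 and 23 members were called lower (5.86%, 3.47%, 4.69%, 5.45% and 12.0% of all genes). At days 7 and 9 the members' share was thus below that of all genes. The same held at day 7 with quantile normalization (2 members, 3.08%, against 4.96%). Lower calls made up 89.0%, 82.3%, 75.4%, 77.6% and 50.8% of all calls as reported, 29.6%, 24.2%, 27.4%, 20.1% and 37.0% with the 75th percentile, and 64.5%, 52.7%, 62.5%, 44.8% and 54.1% with quantile normalization. The members' median minus that of all genes was -1.01, -0.84, -0.66, -0.96 and -1.09 log2 in order of day, a difference that any scaling by 1 constant per array leaves as it is by construction. With quantile normalization it was -0.78, -0.66, -0.60, -0.64 and -1.001. With the normexp background correction it was -0.78, -0.56, -0.39, -0.10 and -0.20, and -0.74, -0.62, -0.53, -0.82 and -0.76 when spots with a local background far above their signal were left out. Changes below are on the scale of the array median and are to be read as changes relative to the other genes of the array.

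Within the slides that held 2 control and 2 irradiated arrays, 58, 52, 60 and 55 of the 65 members were lower on days 7, 9, 25 and 30, with medians of -1.03, -1.003, -0.59 and -0.84 beside -0.04, -0.04, -0.23 and 0.12 for all genes. Members at least 2-fold lower there were 35, 33, 3 and 20 (19.8%, 19.999%, 5.84% and 13.0% of all genes). At day 25 the decrease within the slide was thus smaller than over all arrays. With the slide as a block in limma, 19, 10, 1 and 1 members were called lower at these days (9.69%, 4.33%, 0.445% and 1.43% of all genes). At day 7 irradiated mice 2 to 5 were scanned on a day with no control array, as were irradiated mice 3 to 6 at day 30. For those mice scan day and group cannot be told apart. With the day of scanning as a block, 31 were called lower at day 7 (15.5% of all genes) and 10 at day 30 (5.08%). The blocked changes rest on the irradiated arrays that were scanned with controls.

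The subunits of the U2 snRNP showed both directions. Of the 8 Sf3a and Sf3b genes, all of which passed the filter, 6 fell and 2 rose over the 5 days, and their median change was -1.07. Sf3a3 and Sf3b4, subunits that sit close to the branch site, fell at every day. In the control mice of day 4 the level of Sf3b4 was 4.41, 4.42, 4.50 and 4.70, and in the irradiated mice 3.29, 2.91, 3.08 and 3.17. No irradiated mouse reached the level of a control mouse at any of the 5 days. The change of Sf3b4 was -1.39 ± 0.13, -1.13 ± 0.15, -1.21 ± 0.20, -1.36 ± 0.20 and -1.18 ± 0.19 (SE) in order of day (limma adjusted p = 0.00014, 0.00014, 0.0003, 0.00017 and 0.00022). Sf3a3 stood at 4.93, 4.80, 5.40 and 4.84 in the controls of day 4 and at 3.83, 3.16, 3.48 and 3.26 in the irradiated mice, again without overlap there or at any later day, with changes from -1.56 ± 0.19 at day 4 to -1.005 ± 0.24 at day 9. Sf3a1, Sf3b3 and Sf3b5 also fell over the 5 days, by 1.24 ± 0.10, 0.91 ± 0.06 and 0.83 ± 0.07.

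Sf3b1, the large scaffold of Sf3b, was read by a dim probe, well above background on 24 of 56 arrays and on no irradiated array at days 4, 7, 9 and 30. Its day 4 levels were 1.103, 0.75, 1.66 and 0.57 in controls and -0.20, -1.63, -1.23 and -0.91 in irradiated mice, which do not overlap. The irradiated values are bounds, taken from the lowest signal well above background on each array or the probe's own where higher. On the means, without their SE, Sf3b1 was at least 4.04-fold, 2.22-fold and 2.18-fold lower at days 4, 9 and 30. There 4 of 4, 5 of 6 and 5 of 6 control arrays were well above background. At day 4 the bound equals the measured change. The measured changes were -2.01 ± 0.33, -1.32 ± 0.26 and -1.18 ± 0.33 (limma adjusted p = 0.00096, 0.0011 and 0.0059), and the groups overlapped at day 30. At day 7, with 3 of 6 such control arrays, the bound was 1.65-fold and the measured change did not pass (limma adjusted p = 0.059). At day 25, with a change of -1.89 ± 0.32, control mouse 6 at 0.45 lay below the highest irradiated mouse at 0.57.

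Sf3a2 and Sf3b2 encode other subunits of the same complexes, and they were the members called higher, both at day 30. The level of Sf3b2 in the controls of day 30 had a lowest, median and highest value of 5.34, 5.92 and 6.35, and in the irradiated mice of 5.99, 8.20 and 9.12. The groups overlapped, and the irradiated mice spread over a wide range. The change was 2.11 ± 0.43 (limma adjusted p = 0.00073), while at the earlier days it lay between -0.16 and 0.36 and did not pass. The control mice of day 30 were themselves low for Sf3b2: medians of the control groups were 7.11, 7.21, 7.75, 7.24 and 5.92 in order of day, and they differed between days (adjusted p = 0.0027). With scan day as a block the change at day 30 was 1.004 ± 0.45 and within the shared slide 0.65 ± 0.54, and neither was called. Sf3a2 at day 30 had 9.40, 9.66 and 10.36 in controls and 10.14, 10.87 and 11.39 in irradiated mice, with overlap, a change of 1.08 ± 0.24 (adjusted p = 0.0013), 0.87 ± 0.33 with scan day and 0.48 ± 0.38 with slide as a block. Its changes at the other days, from -0.04 to 0.30, did not pass, and its mean change over the 5 days, 0.31 ± 0.11, turned to -0.26 with the normexp background correction that left out aberrant spots.

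**Figure D3:**
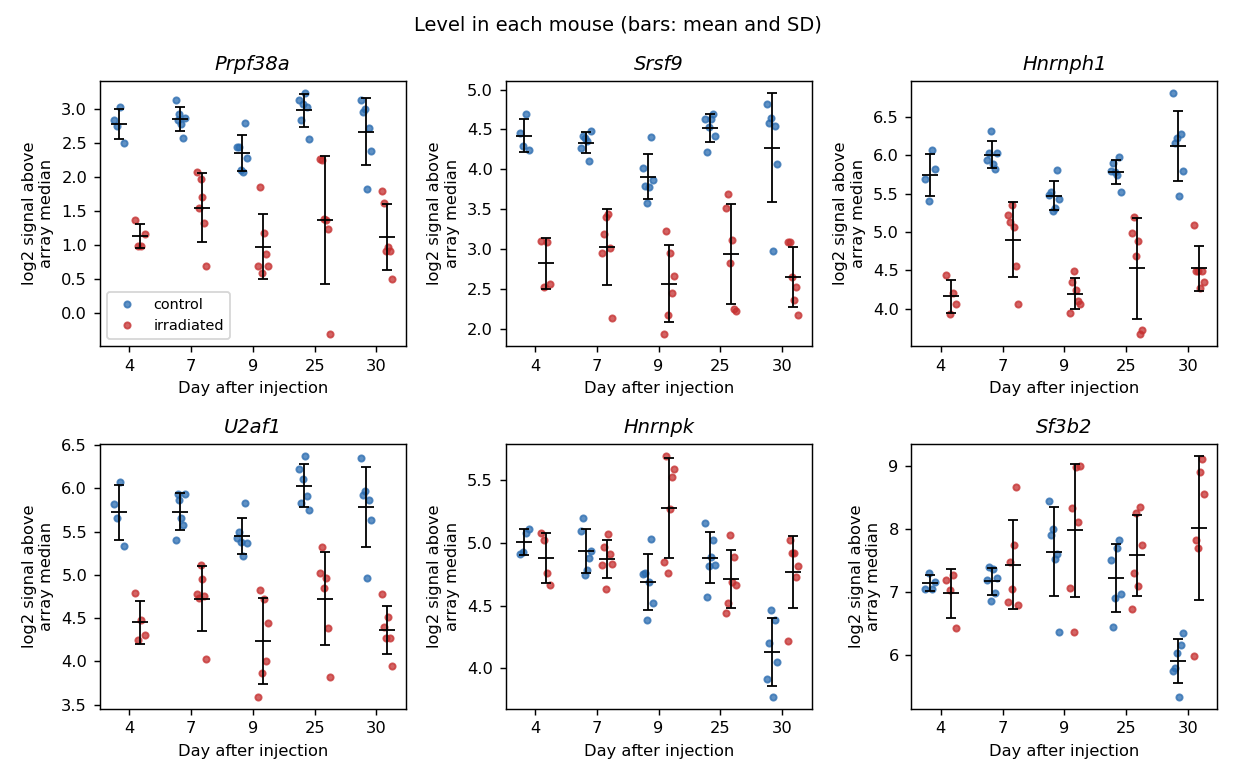
Level of selected members in each mouse (log2 signal above the array median, vertical axis) by day after injection (horizontal axis), control and irradiated mice side by side, with bars for the mean and SD. Prpf38a, Hnrnph1 and U2af1 show irradiated mice below all controls at each day, and Sf3b2 shows irradiated mice from 5.99 to 9.12 at day 30.

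The U2af genes showed 1 large decrease. U2af1, the small subunit that reads the AG at the end of the intron, was called lower at every day. Its day 4 levels were 5.82, 5.66, 6.08 and 5.33 in controls and 4.79, 4.24, 4.47 and 4.30 in irradiated mice, and at no day did the groups overlap. The changes were -1.27 ± 0.19, -1.01 ± 0.17, -1.21 ± 0.23, -1.31 ± 0.23 and -1.42 ± 0.23 in order of day (limma adjusted p from 0.00018 to 0.00072). U2af2, the large subunit that binds the polypyrimidine tract, had a smaller change of -0.57 ± 0.19 over the 5 days (adjusted p = 0.0069) and was called at no day. U2af1l4, a relative of U2af1, had control medians from 7.56 to 8.36 and irradiated medians from 7.39 to 8.15, and the groups overlapped at every day. Its mean change of -0.17 ± 0.07 passed narrowly (adjusted p = 0.026) and turned to 0.21 with the 75th percentile scaling.

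All 11 Snrp genes that passed the filter fell over the 5 days, with a median change of -1.1001 that stayed below 0 under every scaling. They encode the Sm ring proteins common to the spliceosomal snRNPs and proteins particular to the U1 or the U2 snRNP. Snrpg, a Sm ring protein, stood at 7.83, 7.63, 8.19 and 7.58 in the controls of day 4 and at 6.95, 6.40, 6.70 and 6.66 in irradiated mice, which is a fall of 1.13 ± 0.18 (limma adjusted p = 0.00078) with no overlap. It was called again at day 25 (-1.28 ± 0.22) and day 30 (-1.57 ± 0.28), and at day 30 the groups overlapped: controls ran from 6.90 and irradiated mice to 7.14. Snrpa1, a U2 snRNP protein, was lower in each irradiated mouse than in any control at all 5 days. Its change was -1.24 ± 0.19, -0.94 ± 0.16, -1.08 ± 0.24, -1.33 ± 0.23 and -1.34 ± 0.26, called at each day but day 7. Snrpb2, its partner in the U2 snRNP, was called at every day, with changes from -1.04 to -1.32. Snrpb, Snrpd1, Snrpd3, Snrpe and Snrpf, of the Sm ring, and Snrpa, of the U1 snRNP, had mean changes from -1.17 to -0.57. The smallest changes were those of Snrpc, a U1 snRNP protein, at -0.17 ± 0.08 (adjusted p = 0.043), and of Snrpd2, of the Sm ring, at -0.19 ± 0.07 (adjusted p = 0.012), neither called at any day. The Snrpd2 probe used is placed on chromosome 10 in the array's annotation and its other 2 probes on chromosome 7, with changes of -0.17 and -0.28.

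Of the 13 Prpf genes, 11 fell, 1 rose and 1 did not pass over the 5 days (median -1.08). Prpf38a, a protein needed to activate the spliceosome, had the largest mean change of the tested members, -1.498 ± 0.13 or 2.82-fold. Its probe (mm9 chr4:108237616-108237675) read 2.84, 2.75, 3.03 and 2.50 in the controls of day 4 and 1.37, 0.997, 0.997 and 1.17 in the irradiated mice, and the groups did not overlap at any of the 5 days. The changes of Prpf38a were -1.65 ± 0.15, -1.30 ± 0.21, -1.38 ± 0.23, -1.61 ± 0.35 and -1.55 ± 0.27 (limma adjusted p from 0.00014 to 0.0015), and within the shared slides -1.60, -1.27, -0.54 and -0.84 at days 7, 9, 25 and 30. Prpf31, a U4/U6 protein, had controls of 3.86, 3.88, 4.35 and 3.85 at day 4 and irradiated mice of 2.59, 2.40, 2.50 and 2.49. Its changes ran from -1.06 ± 0.15 at day 7 to -1.75 ± 0.19 at day 25, with no overlap at any day. Prpf8, the large scaffold at the catalytic centre, had controls of 7.39, 7.30, 7.85 and 7.29 at day 4 and irradiated mice of 5.73, 5.64, 5.59 and 5.37. Its change was -1.87 ± 0.16 at day 4 (adjusted p = 0.00013) and between -1.03 and -1.45 at the later days, again with no overlap at any of them.

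Several other Prpf genes were near background in irradiated mice. On the means, Prpf4, a U4/U6 protein, was at least 2.07-fold, 2.19-fold and 2.22-fold lower at days 7, 25 and 30. There 4, 6 and 5 of 6 control arrays were well above background. These bounds leave out the SE, and at days 7 and 30 they equal the measured change. Its measured changes were -1.05 ± 0.34, -1.14 ± 0.19 and -1.15 ± 0.25 (limma adjusted p = 0.017, 0.00026 and 0.0011), with overlap of the groups at days 7 and 30. The change at day 9 did not pass (adjusted p = 0.087). Prpf3 (U4/U6), Prpf4b (a kinase), Prpf19 (a ubiquitin ligase of the spliceosome), Prpf38b, Prpf39 and Prpf6 (a bridge within the tri-snRNP) fell by 1.05 ± 0.08, 1.21 ± 0.17, 1.08 ± 0.09, 0.77 ± 0.12, 1.11 ± 0.12 and 0.58 ± 0.07 over the 5 days. At day 9, where no irradiated array was well above background for them, the mean of Prpf39 was at least 2.26-fold and that of Prpf38b at least 1.70-fold lower. Their measured changes had limma adjusted p-values of 0.0067 and 0.022. For Prpf38b the groups overlapped and the bound equals the measured change. Prpf40b rose by 0.38 ± 0.15 (adjusted p = 0.018) but was well above background on only 13 arrays.

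Among the 12 SR protein genes 8 fell, 2 rose and 2 did not pass over the 5 days (median -0.75). Srsf9, a short SR protein, was called at every day. Its level was 4.45, 4.30, 4.70 and 4.24 in the controls of day 4 and 3.11, 2.52, 3.09 and 2.57 in the irradiated mice. At day 30 controls had a lowest, median and highest value of 2.97, 4.57 and 4.82 and irradiated mice of 2.18, 2.59 and 3.09, so that 1 control mouse overlapped, while at the other 4 days the groups stood apart. The change of Srsf9 was -1.60 ± 0.18, -1.31 ± 0.19, -1.34 ± 0.23, -1.58 ± 0.25 and -1.62 ± 0.29 in order of day (limma adjusted p from 0.00019 to 0.00042). Srsf7, Srsf10, Srsf3, Srsf4, Srsf6 and Srsf1, other regulators of exon inclusion, fell by 1.11 ± 0.11, 1.04 ± 0.14, 1.04 ± 0.08, 0.86 ± 0.09, 0.77 ± 0.09 and 0.73 ± 0.09. Srsf5 had the smallest decrease, 0.47 ± 0.07, and its course is given below with the genes that differed between days. Srsf2 and Sfrs18 rose on their brightest probes, by 0.25 ± 0.07 (adjusted p = 0.0013) and 0.43 ± 0.08 (adjusted p = 1.2e-06). Srsf11 (0.03 ± 0.07) and Srsf12 (0.38 ± 0.27, well above background on 8 arrays) did not pass over the 5 days. At day 4 its change was 1.53 ± 0.35 (adjusted p = 0.0055), but the groups overlapped and 0 of 4 control and 1 of 4 irradiated arrays were well above background, so that neither group's level was measured well.

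**Figure D4:**
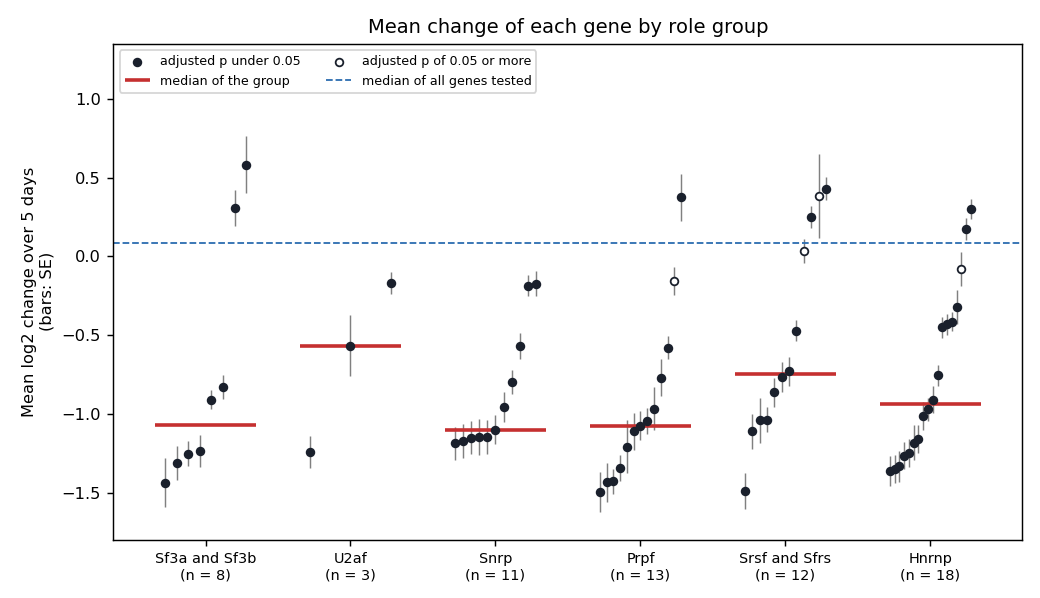
Mean change over the 5 days (log2, irradiated minus control, vertical axis) of each tested member in its name group (horizontal axis), with the group median as a bar and the median of all genes as a dashed line at 0.08. Group medians lie between -1.1001 (Snrp) and -0.57 (U2af).

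Of the 18 Hnrnp genes 15 fell, 2 rose and 1 did not pass over the 5 days (median -0.94). Hnrnph1, which binds runs of G, stood at 5.69, 5.40, 6.06 and 5.82 in the controls of day 4 and at 4.43, 3.93, 4.21 and 4.06 in irradiated mice. The groups did not overlap at any of the 5 days, and the changes were -1.58 ± 0.17, -1.11 ± 0.20, -1.27 ± 0.17, -1.26 ± 0.26 and -1.59 ± 0.23 (limma adjusted p from 8.3e-05 to 0.001). Hnrnpa0, of the A/B family, was likewise apart at each day. Its levels at day 4 were 5.02, 5.06, 5.22 and 4.76 against 3.63, 3.60, 3.79 and 3.40, and its changes ran from -1.02 ± 0.17 at day 7 to -1.55 ± 0.22 at day 25. Hnrnpf, the close relative of Hnrnph1, was called at each day but day 9, where it fell by 0.90 ± 0.19 (adjusted p = 0.0015). Its day 4 levels were 6.98, 6.90, 7.30 and 6.95 in controls and 5.91, 5.52, 5.74 and 5.52 in irradiated mice, and the groups did not overlap at any day. Hnrnpa1 and Hnrnpa3, also of the A/B family, Hnrnpr and Hnrnpul2 were each called lower at 4 days, with mean changes of -1.33, -1.27, -1.25 and -1.18. Hnrnpab, Hnrnpu, Hnrnpa2b1 and Hnrnpd were called at 1 day each, with mean changes from -1.02 to -0.76, and Hnrnph2, Hnrnpc, Hnrnpm and Hnrnpl, with mean changes from -0.45 to -0.32, at no day. Hnrnph3 was well above background on 6 arrays and did not pass (-0.08 ± 0.11). The increases were those of Hnrnpul1, 0.30 ± 0.06 (adjusted p = 3.6e-05), and Hnrnpk, 0.17 ± 0.07 (adjusted p = 0.02), of which the latter turned to -0.34 when the background was corrected by normexp with aberrant spots left out.

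The change itself differed between days for 6 members (22.8% of all genes) by limma's F test over the 5 days at an adjusted p under 0.05. Hnrnpk, which binds runs of C, had the smallest value (adjusted p = 0.0026). Its change was -0.12 ± 0.14, -0.06 ± 0.12, 0.59 ± 0.21, -0.17 ± 0.15 and 0.64 ± 0.19 in order of day, and it passed by itself at days 9 and 30 (adjusted p = 0.031 and 0.0084). At day 30 the lowest, median and highest control values were 3.77, 4.13 and 4.46 and the irradiated values 4.22, 4.86 and 5.02, with overlap. The controls of Hnrnpk were lowest at day 30 and differed between days (adjusted p = 3.0e-05). Hnrnpd, which binds AU-rich elements, fell most at day 4, by 1.18 ± 0.14, where controls read 4.78, 4.70, 5.05 and 4.73 and irradiated mice 3.82, 3.75, 3.45 and 3.51, and least at day 7, by 0.30 ± 0.12 (adjusted p for the difference between days 0.017). Prpf18, a factor of the second step of splicing, was lower at day 4 (-0.61 ± 0.20) and day 25 (-0.50 ± 0.19), with adjusted p-values of 0.031 and 0.032, and its change of 0.52 ± 0.22 at day 9 did not pass (adjusted p = 0.072). Srsf5 fell at days 4, 7 and 25, by 0.86 ± 0.16, 0.48 ± 0.13 and 0.66 ± 0.15, and stood at 0.03 ± 0.18 at day 30. Its day 4 levels were 5.42, 5.41, 5.66 and 5.48 in controls and 4.48, 5.003, 4.69 and 4.35 in irradiated mice. Hnrnpm, an RNA-binding hnRNP, went from -0.82 at day 4 to 0.02 at day 9, and Sf3b2 was described above. With the slide as a random block 1 of the 6 passed, and without irradiated mouse 1 of day 9 or control mouse 4 of day 30 the count was 11 or 10.

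Control arrays also differed among themselves by day. The levels of 30 of the 65 members differed between the 5 control groups (limma, adjusted p under 0.05), where 56.4% of all genes did. With the slide as a random block 7 members did. The control arrays of each day had their own slides and their own day of scanning, so these cannot be told apart from the day itself. The mean level over the members had control medians of 4.08, 4.16, 3.79, 4.23 and 4.09 in order of day and irradiated medians of 3.20, 3.495, 3.24, 3.38 and 3.17. At day 30 the lowest control mouse, at 3.38, lay near the highest irradiated mouse, at 3.34.

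Of the 27 members with 2 or more detected probes, the mean changes of a gene's probes spanned a median of 0.27 log2, and 4 genes had probes that differed in sign. Srsf2, an SR protein that regulates its own transcript through alternative splicing, rose by 0.25 on its brightest probe, with -1.58 and 0.41 on its 2 others. Sfrs18 read 0.43 and -1.29, Hnrnpc -0.43 and 0.02, and Hnrnpa2b1 -0.91 and 0.005. U2af1l4 kept its sign but spanned more than 1 log2, from -0.17 to -1.22. The size of the change also depended on the probe for other members. Among them, Hnrnpa1 read -1.33 and -0.39, Srsf6 -0.77 and -0.02, and Prpf38b -0.77 and -1.38, with the brightest probe first. The direction of Srsf2 and Sfrs18 thus depended on the probe. These genes were named after their values were seen. A probe cannot tell a gene from a near-identical processed copy, of which several Sm protein and Hnrnpa genes have some in the mouse genome.

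**Figure D5:**
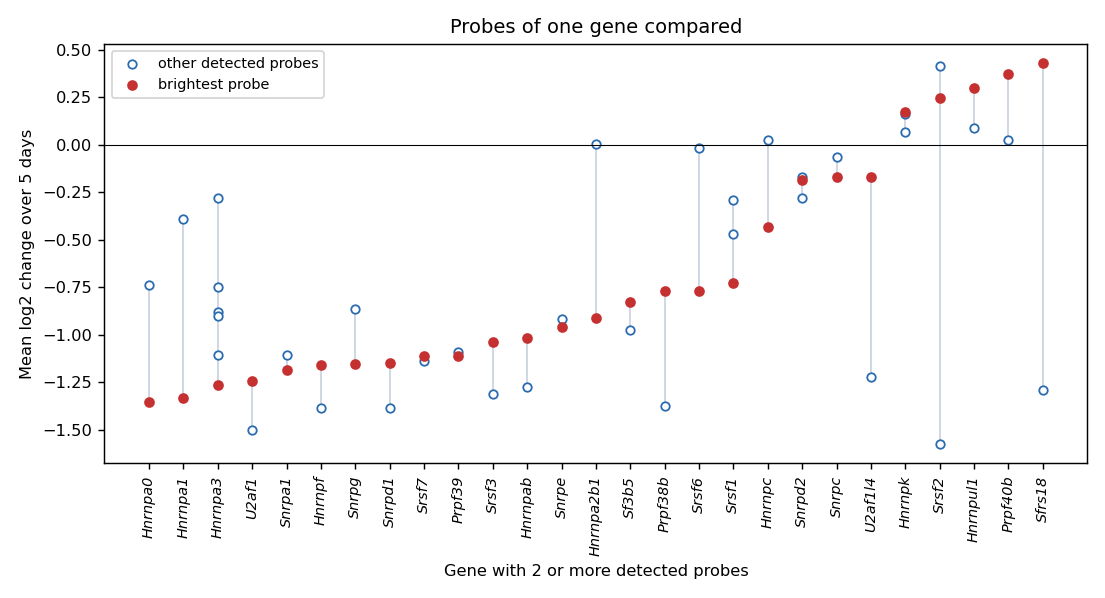
Mean log2 change over the 5 days (vertical axis) of each detected probe of the 27 members with 2 or more detected probes (horizontal axis), with the brightest probe marked. The probes of a gene span a median of 0.27 log2. Those of Srsf2 (0.25, -1.58 and 0.41), Sfrs18 (0.43 and -1.29) and U2af1l4 (-0.17 and -1.22) span more than 1 log2.

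Most genes of the remaining machinery were lower as well. Of 132 other splicing genes listed, 126 were on the array and 122 were tested, and over the 5 days 89 fell and 19 rose at an adjusted p under 0.05 (median -0.81), where 39.9% of all genes fell and 43.3% rose. Called lower were 50, 28, 32, 52 and 39 of 122 in order of day (17.3%, 12%, 13.6%, 19.7% and 16.1% of all genes), and called higher 0, 0, 4, 0 and 5 (2.14%, 2.58%, 4.44%, 5.69% and 15.6%). Helicases and the GTPase of the spliceosome (11 of 12 fell, median -1.14), exon junction and export proteins (9 of 10, median -1.16) and LSM proteins (7 of 9, median -0.90) had the lowest medians beside splicing kinases (5 of 7, median -0.93). The largest decreases were those of Srpk3, a kinase of SR proteins, at -2.57, Pspc1, a paraspeckle protein, at -1.89 and Magohb, of the exon junction complex, at -1.802, and the largest increases those of Ppih, a cyclophilin of the tri-snRNP, at 0.77, Snrnp25, of the minor U11/U12 snRNP, at 0.75 and Lsm6, of the ring on U6, at 0.71.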

How the data were processed

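Blood RNA of 56 mice was measured on one-colour arrays. Per the file headers the authors deposited scanner output of Feature Extraction 11.5.1.1 (the labels name Agilent Feature Extraction 10.7), of which the processed signal intensity, the mean and background intensity, and spot flags were used. The authors also deposited a table of processed log2 values, used as an alternative. Other deposited columns (probe names, flags and positions, mm9) served as annotation.

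Intensities were log2-transformed, spots marked non-uniform were set missing, and each array was centred on its median. Spots of a probe were averaged, probes marked as non-uniform or not significantly positive on 25% or more of the arrays were removed, and the brightest remaining probe stood for a gene. Irradiated and control mice of a day were compared with limma 3.58.1 (R 4.3.3, statmod 1.5.0) on all genes. A fit of the 10 groups gave the mean of the 5 days, the differences between days and between control days. Genes named with full values were the 8 called at the most days, the brightest and the most changed of each name group, the 4 with the smallest p between days and those called higher. Alternatives were other scalings and background corrections, filters, probe rules, blocks, thresholds and the leaving out of each mouse. The members and lists were chosen with earlier results of these data known. Replicates were separate mice, and replicate numbers were not taken to pair them. In simulated arrays of 18876 genes a decrease of -1.5 log2 was called in 72% to 89.5% of the changed genes at the 5 days, with 7 to 15 false calls. The test between days found 68% of the genes simulated to change at day 30 only. The simulated decrease was larger than the members' median change of -0.97, and no slide or scan day effect was simulated. The shares therefore do not give the recovery of the smaller changes seen here. The number of arrays limits the precision. The values of 1 member are not reported here, though it stays in the counts.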

Additional observations from a re-analysis of the deposited data

Results flagged for a closer look

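Among 210 groups of values of the named genes, 12 held a mouse far from the others of its group, where chance alone sets apart about 1 in 20. At day 7 irradiated mouse 6 lay below its group for Srsf9 (2.14), U2af1 (4.02) and Snrpa1 (1.74). At day 4 control mouse 3 lay above its group for Prpf31 (4.35) and Prpf18 (3.92). At day 30 irradiated mouse 1 stood apart for Hnrnph1 (5.09) and Hnrnpf (6.21), both above the group, and for Hnrnpk (4.22), below it, and irradiated mouse 6 for Snrpa1 (0.80), below it. At day 25 control mouse 6 was low for Sf3b1 (0.45) and irradiated mouse 6 for Prpf18 (2.66). At day 9 irradiated mouse 1 was low for Hnrnpd (3.24).

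The change differed between days by limma's F test for Hnrnpk (adjusted p = 0.0026), Prpf18 (0.014), Sf3b2 (0.0152), Hnrnpd (0.0173), Hnrnpm (0.0176) and Srsf5 (0.0185).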

How the results depend on the processing

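In all, 198 counts of members were recomputed under other settings, and 146 of them stayed within 1.5 times the reported count. Of 1032 changes of named genes, 1027 were not reversed. A change of sign that passed neither as reported nor under the other setting was not counted as reversed. Scaling to the 75th percentile gave 10, 0, 0 and 5 members called lower at days 4, 7, 9 and 25, 1 called higher at day 4, 0 lower at all 5 days, 24 of the 62 calls of named genes and 11 members that differed between days, and turned U2af1l4 (0.21) and Prpf18 (0.22). Quantile normalization gave 16, 2, 9 and 12 lower at days 4, 7, 9 and 25 (8.81%, 4.96%, 7.81% and 7.93% of all genes). It gave 1 higher at day 30, 1 lower at all 5 days, 40 calls of named genes and 12 that differed between days, and turned Prpf18 (0.19). The processed table gave 1 higher at day 30 and 9 that differed between control days. The normexp background correction gave 0 members called at any day or at all 5 days, 0 that differed between days or between control days and 0 of the 62 calls of named genes, while 14 of 20 named genes passed over the 5 days (19 as reported); 200 spots on 24 arrays, whose local background exceeded the signal by over 100, left array medians of 6.24 to 10.5. With those spots left out, an alternative chosen after seeing the data, 0 were higher at day 30, 19 were lower at all 5 days, and Sf3a2 (-0.26) and Hnrnpk (-0.34) turned. A filter on variation gave 3 that differed between days and 15 between control days.

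The slide as a block gave 10, 1 and 1 lower at days 9, 25 and 30 and 0 higher at day 30; as a random block, 1 that differed between days and 7 between control days. The scan day as a block gave 31 and 10 lower at days 7 and 30, 0 higher at day 30 and 1 that differed between days. An adjusted p under 0.05 alone gave 50, 46, 38 and 51 lower at days 4, 7, 9 and 25, 1, 1, 2, 1 and 6 higher, and 34 lower at all 5 days. The slide block could not be fitted at day 4 or over all groups, nor the scan day block outside days 7 and 30 or between control days. The cause of these differences was not tested.

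Leaving out 1 mouse gave 24 to 34, 7 to 25, 14 to 23, 28 to 37 and 26 to 36 lower in order of day, 0 to 1 higher at day 4 (1 without mouse 3 of either group), 0 at days 7, 9 and 25, 1 to 2 at day 30 (1 without control mouse 1, 2 or 4 or irradiated mouse 2, 4 or 5), 3 to 13 lower at all 5 days, 55 to 62 calls of named genes, 18 to 19 of 20 named genes past the test over the 5 days, 5 to 11 that differed between days and 23 to 35 between control days. The correlation between the deviations of same-numbered mice was over 0.1 in 8 of 28 pairs and ran from -0.28 to 0.33. At day 4 all 4 were positive (0.31, 0.079, 0.12 and 0.20) and each mouse correlated best with its own number, at day 30 all 6 were positive, and at no day was every pair over 0.1. With the replicate block 31, 16, 17, 31 and 28 members were lower, 7 at all 5 days. Signal over background limits Hnrnph3, Srsf12, Prpf40b, Prpf4 and Sf3b1, which were well above background on fewer than 28 arrays.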
